A study of Mus musculus with 3 samples.

Results

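The nuclear-encoded subunits of respiratory complexes II to V were described in the cytosol of lipid A-stimulated mouse macrophages. Members were the protein-coding genes named exactly Sdha, Sdhb, Sdhc or Sdhd and those whose symbol begins with Uqcr, Cox4 to Cox8 or Atp5. This gave 48 gene identifiers with 47 symbols, out of 55536 annotated genes of which 22028 were protein-coding. Another 8 genes with matching symbols were not protein-coding and were left out. The members were 4 genes of complex II, 8 of complex III, 18 of complex IV and 18 of complex V (ATP synthase). The rule itself uses symbols and gene class and no measured value, but it was chosen with earlier results of these data known.

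The 3 libraries formed 1 group. Each was made from cytosolic total RNA without ribosomal RNA. The cells were macrophages grown from bone marrow precursors of C57BL/6J mice and given lipid A, the Toll-like receptor 4 ligand of bacterial lipopolysaccharide, at 100 ng/ml for 90 min. They are labelled as biological replicates 1 to 3 with the same donor identifier, and the labels record neither sex nor age. The p-values below therefore measure the spread between these 3 libraries only, which may be technical. Untreated cells and other fractions were not analysed here, so no response to lipid A was measured and genes were compared with each other within each library.

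Complex II (succinate dehydrogenase) passes electrons from succinate to ubiquinone, complex III passes them on to cytochrome c, complex IV passes them to oxygen, and complex V makes ATP with the proton gradient that complexes III and IV help to build. Their proteins are encoded in the nucleus, except for a few core subunits of complexes III to V that mitochondria encode. In macrophages activated through Toll-like receptors these complexes are known as a point of metabolic control: succinate oxidation at complex II is tied to inflammatory signalling, and itaconate, made by the enzyme Acod1, inhibits complex II.

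Total expected counts (reads estimated per gene) were 33821479, 47843161 and 59390843 in replicates 1, 2 and 3. Levels are given in TPM, a share of the library corrected for transcript length. The reference for levels was set by the 8752 protein-coding genes that averaged 1 TPM or more, whose median was 7.38, 6.07 and 6.20 TPM in replicates 1, 2 and 3. A gene was called above or below it when the log2 difference was at least 1 in size and the Benjamini-Hochberg adjusted p from limma was under 0.05. All 9 macrophage markers were above the reference, with summed levels of 6375 to 8625 TPM. The 7 neutrophil markers summed to 23.8 to 40.97 TPM, nearly all from S100a8, S100a9 and Ngp, with Ly6g at 0 and Camp, Mpo and Elane at 0.41 TPM or less. Of these 7, 1 was called above the reference (S100a9, mean 19.3 TPM) and 4 below. Markers of T and NK, B, erythroid and fibroblast cells summed to at most 0.14 TPM per list and library. The nuclear RNAs Malat1, Neat1 and Xist summed to 143, 362 and 991 TPM in replicates 1, 2 and 3. Replicate 3 thus held the most of them and replicate 1 the least.

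Most of these mRNAs were abundant. Of the 48 members, 42 passed the filter of a mean of at least 0.1 TPM. Above the reference lay 38 members, below it 2 (Cox6a2 and Atp5s), and 2 had no call (Uqcrc2 and Cox7a1). The background is wide: 20.5% of the 13344 genes tested were called above and 50.6% below, and 23.4% of the 11196 protein-coding genes tested were called above. The 38 members above the reference exceeded it by 2.87-fold (Uqcrfs1) to 28.6-fold (Cox4i1), with adjusted p from 3.21e-05 to 0.000184 (limma, Benjamini-Hochberg). They rested on 524 to 18714 expected counts per gene and library. Over all 48 members, low ones included, the median level was 2.52 ± 0.11 log2 units above the reference (SD, n = 3). The median was -1.06 for all genes tested and -0.63 for the protein-coding genes tested. In bulk RNA, a level cannot tell how many cells carry an mRNA from how much each cell carries.

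**Figure D1:**
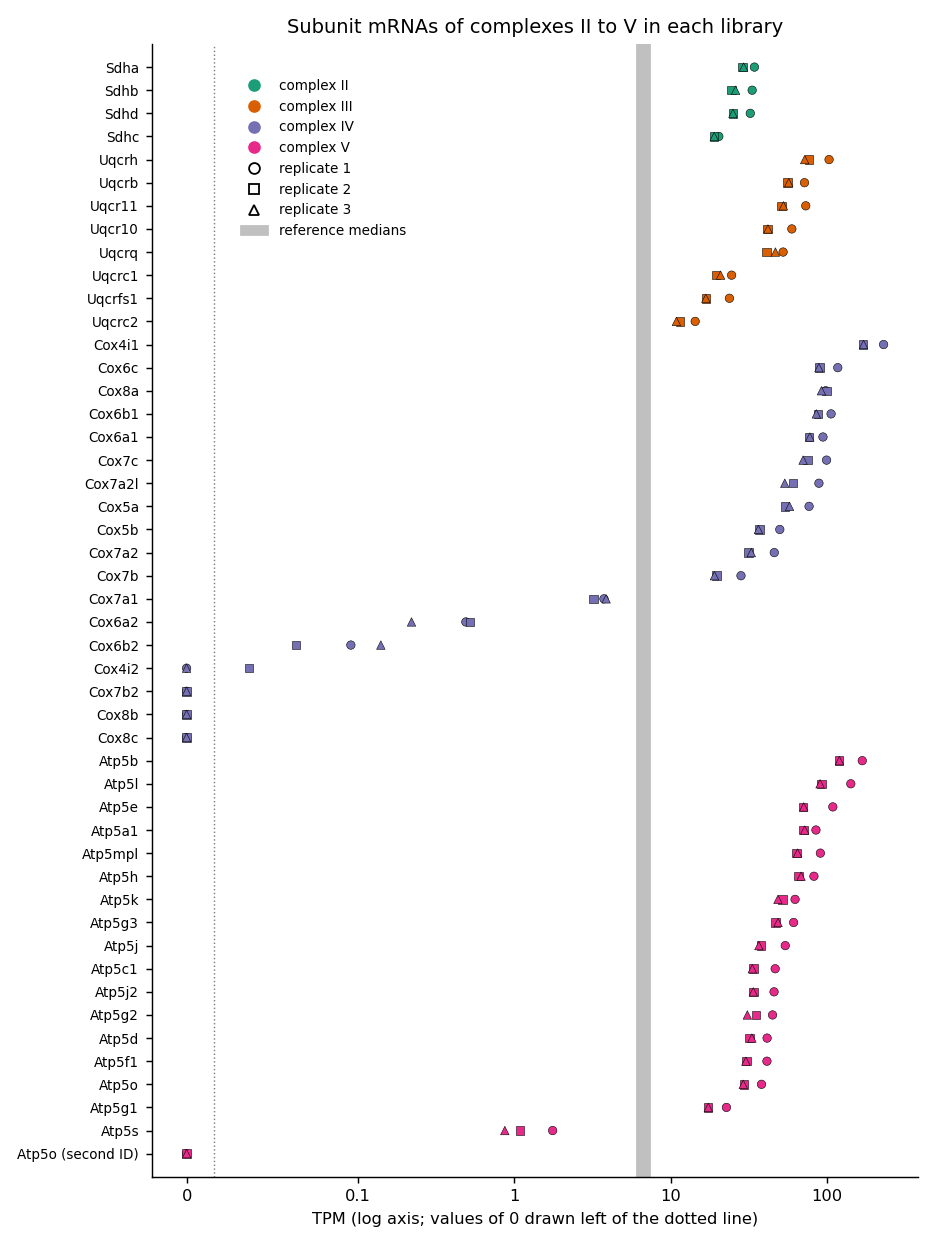
TPM (log axis) of each of the 48 members in the 3 libraries, ordered within each complex by mean TPM; colours mark the complex, symbols the replicate and the grey band the reference medians of 6.07 to 7.38 TPM. Most members lie to the right of the band, and the points left of it belong to Cox7a1, Cox6a2, Cox6b2, Cox4i2, Cox7b2, Cox8b, Cox8c, Atp5s and the second Atp5o identifier.

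The transcripts of the members are short. The 38 genes above the reference had a median length of 700 bases (369 to 2874), against 2559 bases for the protein-coding genes of the reference. Of the 1048 protein-coding genes tested that were under 1000 bases, 39.5% were called above the reference. The median level of this class was 0.25 log2 units, and that of the members in it was 3.03. Among members this length class held 29 of those tested, of which 26 were called above, and 12 of the 13 longer members were called above as well. Across the 42 members tested, length and mean TPM had a Spearman correlation of -0.46, against -0.05 over all protein-coding genes tested. This is a description across genes of the same libraries, and genes are not independent replicates. The libraries were size-selected, per the labels, and the shortest effective length among members above the reference was 138.5 bases. The part of size selection in the levels of short transcripts was not tested.

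**Figure D2:**
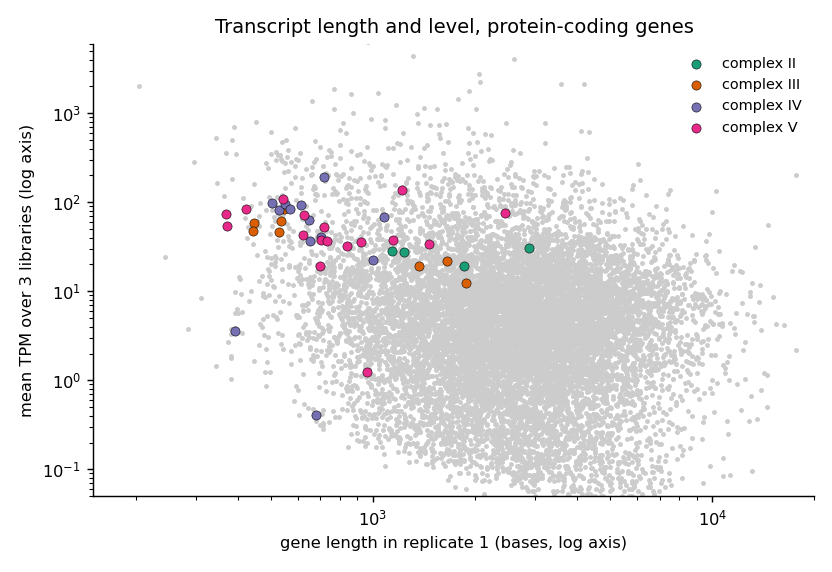
Mean TPM over the 3 libraries against gene length (both log axes) for protein-coding genes that reached 10 counts in all 3 libraries, with members coloured by complex. Most members of complexes III, IV and V crowd at 369 to 1077 bases and above 19 TPM, with Cox7a1, Cox6a2 and Atp5s below, while Atp5b, Atp5a1 and Sdha are long for their complexes and lie above the bulk of genes of their length.

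In complex II all 4 genes were above the reference and lay within 1.59-fold of each other in mean TPM. Sdha (chromosome 13), the flavoprotein that oxidises succinate, had 34.4, 28.8 and 29.4 TPM in replicates 1, 2 and 3. Sdhb (chromosome 4), the iron-sulfur subunit, had 33.3, 24.6 and 26.1 TPM. These catalytic subunits stood side by side, with Sdha above Sdhb in every library. Sdhd (chromosome 9), a membrane anchor that binds ubiquinone, had 32.4, 25.1 and 25.1 TPM. Its order with Sdhb changed between the libraries, so these neighbours did not differ beyond their spread. Sdhc (chromosome 1), the other anchor, had 20.4, 19.0 and 19.0 TPM and was the lowest of the 4 in every library. Sdha exceeded Sdhc by 1.69-, 1.52- and 1.54-fold. Against the reference, Sdha was higher by 2.22 log2 units (SE 0.05, limma, adjusted p = 3.76e-05) and Sdhc by 1.56 (SE 0.07, adjusted p = 0.000112). With a reference of genes of at least 5 TPM, Sdhc lost its call at 0.53. Sdha drew 5406 to 8901 expected counts and the other genes 1795 to 3375.

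In complex III the small subunits without redox groups were the high members and the large core proteins the low ones. Uqcrh (chromosome 4), the hinge protein at the cytochrome c1 contact, had 103.4, 76.7 and 72.2 TPM. Uqcrb (chromosome 13) had 72.0, 55.9 and 57.1 TPM. Uqcr11 (chromosome 10) had 73.3, 51.3 and 52.8 TPM. Uqcrh was the highest in every library, while Uqcrb and Uqcr11 exchanged places. The remaining small subunits, Uqcr10 and Uqcrq, averaged 47.8 and 46.9 TPM and overlapped.

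At the low end of complex III were the catalytic Rieske protein and the core proteins. Uqcrc1 (chromosome 9), core protein 1, had 24.6, 19.5 and 20.9 TPM. Uqcrfs1 (chromosome 13), the Rieske iron-sulfur protein, had 23.8, 16.9 and 16.8 TPM. Uqcrc2 (chromosome 7), core protein 2, had 14.4, 11.5 and 10.9 TPM and was the lowest in every library. The 5 small subunits (41.2 to 103.4 TPM) did not overlap the 3 large ones (10.9 to 24.6 TPM) in any library. On the scale of expected counts the order was not the same: in replicate 1 the small subunits drew 740 to 1920 counts and the large ones 1413 to 2072. The transcripts of the small subunits measured 442 to 547 bases and those of the large ones 1363 to 1886 bases. Uqcrh was above the reference by 3.65 log2 units (SE 0.08, limma, adjusted p = 3.50e-05), and Uqcrc2 by 0.89 (SE 0.06, adjusted p = 0.000412), which is under the minimum difference. Uqcrc2 was called above with FPKM (1.12), and it turned to -0.14 with the reference of at least 5 TPM, where Uqcrc1 (0.68) and Uqcrfs1 (0.49) also lost their calls. Uqcrfs1 lost its call (0.92) also in a second quantification that the authors deposited, made from the FASTQ files.

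Complex IV held both the highest member and nearly all undetected ones. Of its 18 genes, 11 were above the reference, 1 below, 1 had no call and 5 were too low to test. Cox4i1 (chromosome 8), the largest nuclear-encoded subunit, had 230.9, 171.0 and 171.9 TPM. It ranked 182nd of the 22028 protein-coding genes by mean TPM and was 4.84 log2 units above the reference (SE 0.07, limma, adjusted p = 3.21e-05). Cox6c (chromosome 15) followed with 117.6, 89.8 and 89.0 TPM, and Cox8a (chromosome 19) with 98.4, 99.2 and 92.4 TPM. Cox8a was the exception among the 38 members above the reference in that its highest TPM was not in replicate 1. Cox6c and Cox8a overlapped, and Cox4i1 was apart from both in each library. Cox5a, which joins Cox4i1 early in assembly, and Cox5b, a zinc-binding subunit, averaged 63.0 and 41.2 TPM.

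Several complex IV subunits exist as paralogues that are known for tissue-specific use, with heart and skeletal muscle, lung or testis forms. In these macrophages 1 form carried the level in each such pair. Cox4i2 (chromosome 2), the lung form, had 1 count in replicate 2 and none in the others, while Cox4i1 drew 6606 to 10070 counts per library. Cox6a1 (chromosome 5) had 94.5, 77.1 and 77.9 TPM and the muscle form Cox6a2 (chromosome 7) 0.49, 0.52 and 0.22 TPM. Cox6a2 was called below the reference (-3.76 log2 units, SE 0.22, limma, adjusted p = 0.00027) on 13, 23 and 12 counts. The ratio of Cox6a1 to Cox6a2 was 193, 148 and 354, or 7.76 ± 0.64 log2 units (SD, n = 3). Cox6b1 (chromosome 7) had 106.5, 87.7 and 85.7 TPM, and the testis form Cox6b2 (chromosome 7) had 0.09, 0.04 and 0.14 TPM from 1, 1 and 4 counts.

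Counts of 0 in all 3 libraries were found for Cox7b2 (chromosome 5), Cox8b (chromosome 7) and Cox8c (chromosome 12). The upper limit behind such a zero is 3 counts, equal to 0.164, 0.096 and 0.079 TPM for Cox7b2 in replicates 1, 2 and 3. Cox7b (chromosome X) had 28.2, 19.7 and 19.1 TPM, at least 172-fold more than Cox7b2. For the short muscle form Cox8b the limit was 0.386, 0.209 and 0.171 TPM, and Cox8a was at least 255-fold higher. For the testis form Cox8c it was 0.225, 0.128 and 0.105 TPM, and Cox8a was at least 437-fold higher. Each of these folds is the smallest over the libraries, with the limit set per library, and covers no error other than that of counting, as the reads carry no molecular identifiers. Cox7b itself was 1.74 log2 units above the reference (SE 0.09, limma, adjusted p = 0.000177) and lost its call with the reference of at least 5 TPM (0.71).

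The Cox7a family had 3 detected members. Cox7a2l (chromosome 17), a relative that is known as an assembly factor joining complexes III and IV, had 89.0, 60.7 and 53.8 TPM. Its predicted protein, translated from the annotated transcript, has 111 residues. Whether the form made by this mouse strain joins these complexes was not tested, and an mRNA level does not show it. Cox7a2 (chromosome 9), the widely expressed subunit, had 46.1, 31.5 and 32.9 TPM. Cox7a1 (chromosome 7), the muscle form, had 3.75, 3.22 and 3.87 TPM from 36, 56 and 82 counts. The 3 genes did not overlap: Cox7a2l exceeded Cox7a2 by 1.93-, 1.93- and 1.64-fold, and Cox7a2 exceeded Cox7a1 by 12.3-, 9.77- and 8.49-fold. Cox7a1 was thus higher than the other muscle forms, Cox6a2 and Cox8b, in every library. Against the reference it lay at -0.84 log2 units (SE 0.08, limma, adjusted p = 0.00125), under the minimum difference, and it was called below in the second quantification (-1.34) and with the reference of at least 5 TPM (-1.87). The predicted proteins translated from the annotated transcripts share 57.5% of residues between Cox7a2 and Cox7a1 and 45.8% between Cox7a2 and Cox7a2l. The other pairs, from Cox8a and Cox8c at 31.9% to Cox6a1 and Cox6a2 at 61.9%, cover a similar range.

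**Figure D3:**
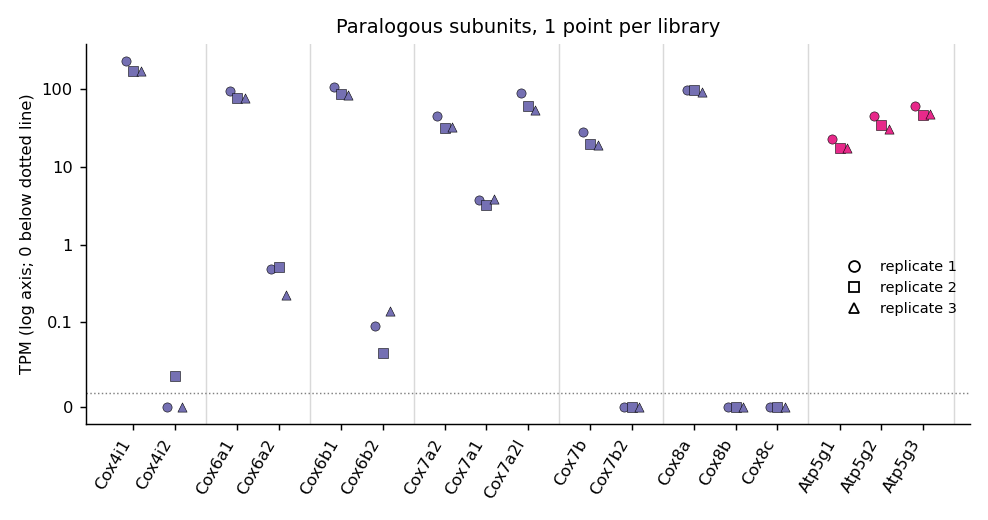
TPM (log axis) of each paralogous subunit in the 3 libraries, with symbols for the replicates and values of 0 below the dotted line. In the complex IV groups the muscle, lung and testis forms lie at or under 3.87 TPM, whereas the 3 c-subunit genes of complex V lie between 17.4 and 61.3 TPM.

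In complex V, 16 of 18 identifiers were above the reference. Within the catalytic F1 head, Atp5b (chromosome 10) is the beta subunit that carries the active site. Over all its transcripts it had 168.6, 119.4 and 120.5 TPM and was the highest member of the complex in every library. Atp5a1 (chromosome 18), the alpha subunit, had 85.2, 70.8 and 72.2 TPM, so that Atp5b over all transcripts exceeded it by 1.98-, 1.69- and 1.67-fold. The proteins enter the head in equal number. The coding transcript of Atp5b alone had 87.8, 69.2 and 69.2 TPM, close to Atp5a1. Atp5e (chromosome 2), the epsilon subunit, had 109.3, 70.5 and 71.2 TPM and overlapped Atp5a1 over the libraries. The gamma subunit Atp5c1 and the delta subunit Atp5d, which form the rotor stalk with epsilon, averaged 38.1 and 35.5 TPM.

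The membrane part and the outer stalk spanned a similar range. Atp5l (chromosome 9), the g subunit at the dimer contact, had 142.4, 92.8 and 90.6 TPM. The other small membrane subunits averaged 73.3 TPM (Atp5mpl), 54.5 TPM (Atp5k) and 37.9 TPM (Atp5j2). The stalk subunits averaged 72.3 TPM (Atp5h), 43.0 TPM (Atp5j), 34.1 TPM (Atp5f1) and 32.3 TPM (Atp5o). Neighbours in this order, such as Atp5mpl and Atp5h, overlapped over the libraries. A second Atp5o identifier, which overlaps the first on the same strand of chromosome 16, had 0 counts in all 3 libraries.

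Atp5s (chromosome 12), the coupling factor B gene that is not a structural subunit of the enzyme, was the low member of complex V. It had 1.76, 1.09 and 0.87 TPM and was called below the reference (-2.36 log2 units, SE 0.16, limma, adjusted p = 0.000385). Its expected counts were 76, 95 and 114, and scaled to library size they differed less (SD 0.06 log2 CPM) than its level in TPM (SD 0.35 log2 units). The annotation gives this gene 5 transcripts, and the share of its TPM held by the one of 1485 bases was 31.1%, 18.3% and 58.0% in replicates 1, 2 and 3.

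The c subunit, which forms the rotating ring in the membrane, is encoded by 3 genes that give the same mature protein. The predicted precursors have 136 (Atp5g1), 146 (Atp5g2) and 141 (Atp5g3) residues and end in the same 78 residues, which 234 coding bases encode in each gene. Across those bases Atp5g2 differs from Atp5g1 at 36 and Atp5g3 at 50. The first 90 of them are shown because reads from this stretch can be assigned to 1 of the 3 genes through such differences. Bases outside the shared stretch can separate the genes as well. They are read from the GENCODE M21 transcripts, 5′ to 3′ on the coding strand. Capitals mark bases that differ from Atp5g1, and in Atp5g1 bases that differ from either of the others.
Atp5g1: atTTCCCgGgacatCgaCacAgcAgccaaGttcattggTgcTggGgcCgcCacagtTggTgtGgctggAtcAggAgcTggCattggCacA
Atp5g2: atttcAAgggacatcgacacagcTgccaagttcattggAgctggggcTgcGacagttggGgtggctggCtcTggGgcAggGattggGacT
Atp5g3: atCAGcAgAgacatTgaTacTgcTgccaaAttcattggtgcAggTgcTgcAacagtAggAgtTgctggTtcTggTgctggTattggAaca

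All 3 c-subunit genes were called above the reference in the first quantification. Atp5g3 (mm10 chr2:73908447-73911326, minus strand) had 61.3, 47.1 and 48.7 TPM. Atp5g2 (chr15:102662864-102672352, minus strand) had 45.0, 35.2 and 31.0 TPM. Atp5g1 (chr11:96068852-96075670, minus strand) had 22.8, 17.4 and 17.4 TPM and was the lowest of the 3 in every library. Atp5g3 exceeded Atp5g1 by 2.69-, 2.71- and 2.79-fold, a ratio with an SD of 0.03 log2 units. Atp5g3 exceeded Atp5g2 by 1.36-, 1.34- and 1.57-fold. Together the 3 genes held 129, 99.6 and 97.2 TPM. That was less than Atp5b over all its transcripts, but more than the coding transcript of Atp5b alone (87.8, 69.2 and 69.2 TPM). In the second quantification that transcript had 41.4, 27.9 and 22.5 TPM, and the 3 genes together exceeded it in replicate 1 only. Atp5g1 was above the reference by 1.53 log2 units (SE 0.06, limma, adjusted p = 9.54e-05), and lost its call with the reference of at least 5 TPM (0.50) and in the second quantification (0.98).

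The order of Atp5g2 depended on how reads were assigned. In the second quantification the TPM of all genes tested were centred at 0.49, 0.43 and 0.35 of those in the first. Relative to that centre, 1 of the 41 members tested was called different: Atp5g2 was lower by a log2 ratio of -2.86 (limma, Benjamini-Hochberg adjusted p = 0.003). Among 9491 genes tested, 1.94% were called lower and 2.72% higher. No member was called higher by limma. The other 40 members had ratios of -0.34 (Atp5b) to 0.28 (Cox7b) and leaned to the lower side: their median was -0.12, while the quartiles of all genes tested were -0.08 and 0.13. At an unadjusted p under 0.05, 23 of these 40 had a negative ratio and 4 a positive one. In the second quantification Atp5g2 had 3.65, 1.77 and 1.26 TPM, and its level against the reference turned to -0.85.

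A copy of Atp5g2 moved the other way. Gm10175, a transcribed processed pseudogene (chr7:23946646-23947290, minus strand), is identical to the main Atp5g2 transcript over its whole 645 bases. It had 14.98, 7.23 and 8.18 TPM in the first quantification, 24.99%, 17.1% and 20.9% of the sum of the pair. In the second it had 27.7, 17.3 and 12.002 TPM, 88.3%, 90.7% and 90.5% of the sum. The centred log2 ratio of the summed pair was 0.04 ± 0.07 (SD, n = 3), so the sum was stable while its division was not. Which of the quantifications divides the reads of Atp5g2 correctly was not tested.

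**Figure D4:**
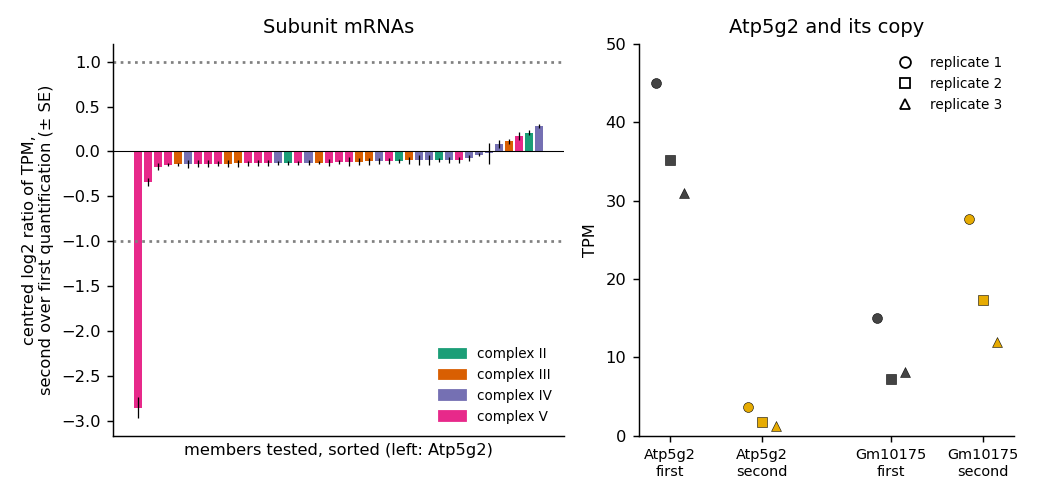
Left: centred log2 ratio of TPM, second over first quantification, for the 41 members tested, with SE from limma over 3 libraries and dotted lines at the minimum difference of 1; Atp5g2 is the bar at -2.86. Right: TPM of Atp5g2 and of its copy Gm10175 in the 3 libraries under both quantifications, in which the order of the pair is exchanged.

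Processed copies were searched for every member, since short abundant mRNAs of this kind often have them. With at least 95% identity over at least 150 bases, 14 of the 47 member symbols had 30 copies among the annotated transcripts. Of these copies, 14 were at 0 and 3 averaged at least 1 TPM, with 0.63 TPM as the highest mean of the rest. Besides Gm10175, the 3 were Gm12338 and Gm10221. Gm12338, which matches Cox7c over 192 bases without a mismatch, had 107.4, 106.2 and 94.4 TPM in the first quantification, from 93.7 to 213.5 expected counts on an effective length of 14.7 bases in replicate 1. In the second it had 3.03, 17.5 and 12.8 TPM. Its level is therefore uncertain, and Cox7c itself had 99.6, 75.0 and 70.5 TPM. Gm10221, a copy of Atp5l, had 7.90, 4.27 and 0 TPM and was at 0 throughout in the second.

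The division of a gene over its transcripts was uneven for 4 members. In 34 of 41 members with such transcripts and a total of at least 1 TPM, protein-coding transcripts held over 95% of the TPM. The median was 99.3%, against 97.5% over 8742 genes. The share was under 80% in Cox5b (78.4% ± 7.89), Atp5b (55.8% ± 3.24), Atp5f1 (46.0% ± 7.34) and Atp5j (35.9% ± 3.14, SD, n = 3). In Atp5b a processed transcript of 478 bases held 66.4, 47.7 and 44.8 TPM beside 87.8, 69.2 and 69.2 TPM for the coding transcript of 1916 bases. On its coding transcript alone Atp5b was close to the total of Atp5a1, and their order changed between the libraries. By this measure Atp5b was lower than the totals of Atp5l and Atp5e in every library. In Atp5j the annotated class of transcripts that keep an intron held 61.2%. In Atp5f1 the class predicted to undergo nonsense-mediated decay held 52.0%. The second quantification gave coding shares of 62.9% for Cox5b, 66.9% for Atp5b, 48.7% for Atp5f1 and 43.8% for Atp5j. It also gave 59.6% for Cox7b, which had 99.1% in the first.

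No source used here says whether counting respected the strand, so overlaps on opposite strands matter. Such an overlap was annotated for 8 members, and in 2 the partner averaged at least 1 TPM: Emc8 at 5.66 TPM shares 134 bases with Cox4i1, and Haus1 at 2.06 TPM shares 129 bases with Atp5a1.

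The members varied little between the libraries. On log2 CPM (counts scaled to library size, with TMM factors) the median SD over the 3 libraries was 0.06 for the 42 members that reached 10 counts in all 3 libraries. It was 0.12 for all 12316 such genes and 0.08 for the 5415 protein-coding genes in the abundance range of the 38 members above the reference. The edgeR goodness-of-fit test against the dispersion trend called 2.33% of all genes (Benjamini-Hochberg adjusted p under 0.05) and 0 of the 42 members, a share close to that background. At an unadjusted p under 0.05 it was 0 members, 6.04% of all genes and 4.80% of the protein-coding genes in that abundance range. With DESeq2 size factors in place of TMM the count was also 0. Closest was Cox7a2l with an SD of 0.22 (adjusted p = 0.891), followed by Cox6a2 with an SD of 0.56 on few counts and Cox8a with 0.19. The smallest spread was that of Uqcrb and Cox6c, both at 0.008.

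**Figure D5:**
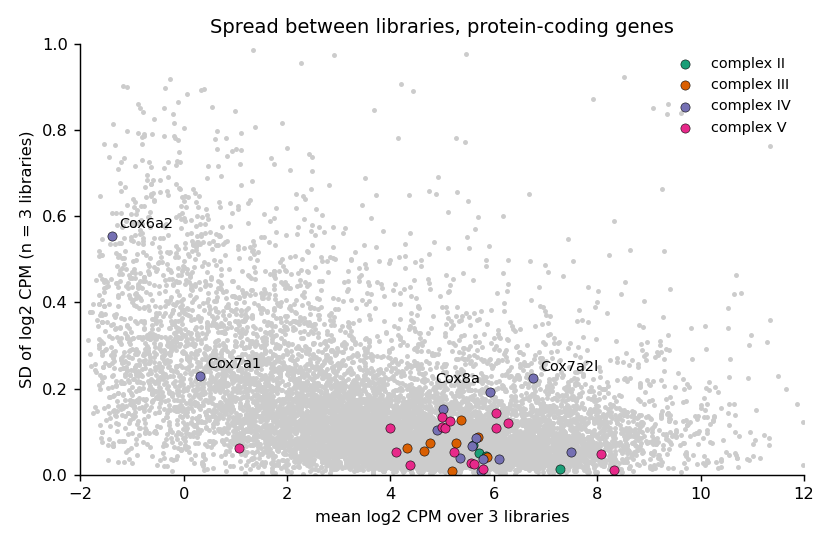
SD of log2 CPM over the 3 libraries against mean log2 CPM for protein-coding genes that reached 10 counts in all 3 libraries (SD above 1 not shown), with members coloured by complex. Members lie along the lower part of the cloud, and Cox7a2l and Cox8a are the abundant members with the widest spread, 0.22 and 0.19.

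The libraries nonetheless stood in an order that the members shared. In TPM, replicate 1 was the highest for 37 of the 38 members above the reference (97.4%), against 83.6% of the 8752 protein-coding genes of the reference. The median ratio of replicate 1 to the mean of the others was 1.35 for these members and 1.203 for the reference genes. Set against each library's reference, replicate 1 was the highest for 31 of 38 (81.6%), against 38.4% of reference genes. On log2 CPM it was the highest for 25 of 38 (65.8%), against 40.2%. Replicate 1 was also the least deeply sequenced library and had the least Malat1, 128 TPM against 335 and 913. The length correction in TPM also differed between the libraries. For the short Atp5mpl, 3 counts equalled 0.364, 0.199 and 0.162 TPM in replicates 1, 2 and 3. For the long Sdha they equalled 0.0191, 0.0119 and 0.00989 TPM. The part of depth, of nuclear RNA and of this correction in the order of the libraries was not tested.

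Of the 6 subunits of complexes III to V that mitochondria encode, 4 were lowest in replicate 1 and highest in replicate 3. mt-Co1, the catalytic subunit of complex IV, had 694, 977 and 1663 TPM. mt-Cytb, the cytochrome b of complex III, had 233, 369 and 632 TPM, and mt-Atp8 of complex V had 1101, 1756 and 3223 TPM. The last of the 4, mt-Atp6 of complex V, had 93.4, 96.05 and 181 TPM. In the first quantification the others were highest in replicate 1: mt-Co3 of complex IV had 158, 86.1 and 137.5 TPM. For comparison, all nuclear-encoded members of complex IV summed to 1042, 807 and 792 TPM. Of all 6, 5 were above the reference and 4 were beyond the dispersion trend, where the nuclear-encoded members had none. mt-Co2 of complex IV was low at 7.46, 5.16 and 4.48 TPM, but it was called higher in the second quantification by a log2 ratio of 3.29, which turned its level from -0.23 to 2.61. mt-Atp6 was called higher there too (2.41) and mt-Atp8 lower (-1.16), so levels of these genes depend on the quantification. The order of the libraries also changed for mt-Co3, which had 103, 85.2 and 167 TPM in the second quantification, highest in replicate 3. The first TPM of mt-Atp8 rested on 1266, 4236 and 9570 expected counts. In the second quantification mt-Atp8 had 224, 368 and 503 TPM, below mt-Co1 (330, 403 and 548 TPM) in every library.

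Subunits and carriers that the symbols of the rule miss were less uniform. Cyc1 (chromosome 15), cytochrome c1 of complex III, had 10.9, 7.82 and 8.43 TPM, and Cycs (chromosome 6), the soluble cytochrome c, had 5.58, 5.09 and 5.45 TPM. Neither was called. Cyc1 was lower in every library than each of the 8 complex III members. Atpif1, the inhibitor of ATP hydrolysis by complex V, had 151, 110 and 98.02 TPM, and Usmg5, a small membrane subunit of complex V, had 131, 111.5 and 108.5 TPM. Ndufa4, a complex IV subunit, had 60.9, 42.5 and 38.4 TPM, while its relative AA467197 (Nmes1) had 4.01, 2.67 and 1.87 TPM and was called below (-1.23 log2 units, limma, adjusted p = 0.00461).

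Counts of assembly factors stand beside a background in which 20.5% of all genes tested were called above the reference and 50.6% below. None of the 4 complex II factors lay 1 log2 unit or more above it and 2 were called below by limma, Sdhaf1 at a mean of 0.48 TPM and Sdhaf3 at 0.27 TPM. For complex III 1 of 6 was above (Uqcc2, 13.3 TPM) and 3 were below, among them Bcs1l (1.203 TPM), which inserts the Rieske protein. Of 24 complex IV factors, 5 were above, 9 below, 9 uncalled and 1 (Pet117) at 0. The highest were Cox17 (54.2 TPM), the copper chaperone, Higd2a (21.02 TPM), Cox16 (18.6 TPM) and Coa5 (16.8 TPM), and Taco1 was low at 0.71 TPM. Of 3 complex V factors, 2 were below (Atpaf1, 2.53 TPM, and Atpaf2, 2.95 TPM) and Tmem70 had no call at 3.45 TPM. Of 10 transcription regulators tested that are known for these genes, none lay 1 log2 unit or more above the reference and 5 were called below by limma, including Nrf1 at 2.58 TPM. That number below is near the background of 50.6%. Gabpa had the highest mean at 8.38 TPM, and Ppargc1a was near 0 at 0.02 TPM.

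Promoter windows of RefSeq (build GRCm38.p6, 250 bases before to 50 after the start) were matched for 36 of the 47 member symbols, with 39 windows. The letters GCGCATGCG, known as a recognition sequence of NRF1, were found on either strand in 15.4% of the member windows, those of 6 genes, against 1.75% of all 32851 windows. CCGGAAGT, an ETS-type sequence, was found in 10.3% against 3.89%, in the windows of Uqcrh, Uqcr11, Atp5h and Cox8a. AAGATGGCG (YY1) was found in 5.13% against 1.40%. GGGCGG (SP1) was found in 35.9% against 35.7%, and TATAAA in 7.69% against 13.6%. The NRF1 letters were in the windows of Uqcr11, Uqcrc1, Cox6a1, Atp5g2, Atp5k and Atp5l, genes with means of 21.7 to 108.6 TPM from 3 of the complexes. Matches are descriptions of the sequence and do not show binding. The palindrome GCGCATGCGC holds a match on each strand at 1 base of distance, and none of the NRF1 matches overlaps an ETS match.

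Sections of 4 of these windows are shown because they place the motifs relative to the start, 5′ to 3′ on the strand of the gene, with NRF1 and ETS matches in capitals. In Uqcr11 (chr10:80406818-80406927, minus strand) the ETS match begins 66 bases before the start and the NRF1 match 5 bases before it. In Cox6a1 (chr5:115349071-115349160, minus strand) the NRF1 match begins 162 bases before the start, in Atp5k (chr5:108434437-108434489, minus strand) 50 bases before and in Atp5l (chr9:44920935-44920992, minus strand) 241 bases before.
Uqcr11: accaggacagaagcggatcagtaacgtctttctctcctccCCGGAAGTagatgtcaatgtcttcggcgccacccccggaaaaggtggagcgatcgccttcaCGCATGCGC
Cox6a1: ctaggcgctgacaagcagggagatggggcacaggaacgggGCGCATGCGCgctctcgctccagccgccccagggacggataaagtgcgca
Atp5k: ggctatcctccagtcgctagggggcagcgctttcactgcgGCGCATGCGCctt
Atp5l: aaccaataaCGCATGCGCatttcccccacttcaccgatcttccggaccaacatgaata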

How the data were processed

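Reads had been aligned to mm10 with the GENCODE M21 annotation, per the labels and the text deposited beside the files. The authors deposited expected counts, TPM and FPKM per gene and transcript from transcriptome alignments, per the file headers (a layout that matches RSEM), and a second set of estimated counts and TPM per transcript made from FASTQ files (a layout that matches kallisto). No source used here names the tools, their versions or the strand setting. TPM as deposited is a share of everything quantified, small RNAs and spike-ins included. Deposited FPKM values served an alternative only.

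Gene symbols and classes came from GENCODE M21. The members and all gene lists were chosen with earlier results of these data known. Levels were log2(TPM + 0.1) minus the reference, tested against 0 by the moderated one-sample test of limma 3.58.1 (R 4.3.3) over all 13344 genes that averaged 0.1 TPM or more. Expected counts were rounded and scaled by TMM for the edgeR 4.0.16 goodness-of-fit test (genes that reached 10 counts in all 3 libraries, prior count of 2 for log2 CPM). TPM of the second set were summed per gene, and the log2 ratio (pseudocount 0.1) was centred on the median and tested with limma. Alternatives, with DESeq2 1.42.0 size factors among them, are in the closing section. All calls used a Benjamini-Hochberg threshold of 0.05. The limit of 3 counts behind a zero equals 0.0891, 0.0628 and 0.0506 CPM in replicates 1, 2 and 3.

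Given in full were the 3 highest and 3 lowest members of each complex, every paralogue and every called exception. From each list of other genes up to 4 of the highest and 2 of the lowest were named, and Bcs1l, Nrf1 and Tmem70 were added after their values were seen. The split of complex III into small and large subunits, the length class under 1000 bases and the 4 promoter sections were chosen after the data were seen. Copies were searched with BLAST+ 2.17.0. Steps were tested on simulated data.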

Additional observations from a re-analysis of the deposited data

How the results depend on the processing

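No paired analysis was possible because the 3 libraries form 1 group. The count of members above the reference was 38 in the analysis reported and 33 (reference of at least 5 TPM) to 39 (FPKM) over the alternatives, with 35 in the second quantification. Leaving out each library in turn gave 38 each time. The count below was 2, and 8 without the filter on low values, since that alternative tests 6 more members. The median level of members was 2.52 log2 units, 2.37 with a pseudocount of 1 TPM, 2.74 with FPKM, 1.92 in the second quantification and 1.49 with the reference of at least 5 TPM; without each library in turn it was 2.43 to 2.57. A higher reference lowers every level by construction, and the cause of the other shifts was not tested. The level changed sign for Uqcrc2 (-0.14) and Cyc1 (-0.58) with the reference of at least 5 TPM, and in the second quantification for Atp5g2 (-0.85), Cyc1 (-0.047) and mt-Co2 (2.61). Counts of members beyond the dispersion trend (0) and of members higher (0) or lower (1) in the second quantification were the same under every alternative run for them. Depth limits the undetected paralogues, for which only the upper limits of 3 counts can be given.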

Other observations

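Other energy genes gave a frame for these levels. Of 36 complex I subunits, 28 were above the reference, none lay 1 log2 unit or more below it and 8 had no call, with a median over genes of 18.9 TPM in the mean of the 3 libraries. The highest were Ndufa1 (67.4 TPM), Ndufa3 (52.6 TPM), Ndufb8 (47.9 TPM) and Ndufc2 (40.1 TPM), and the lowest Ndufb4 (5.49 TPM) and Ndufv1 (8.23 TPM), a catalytic flavoprotein. The 48 members of complexes II to V had a median of 38.0 TPM by the same measure. The 15 glycolysis genes had a median of 53.0 TPM, with 12 above the reference and 1 below (Pfkm, 1.48 TPM). Gapdh (243 TPM), Aldoa (128 TPM), Pkm (93.3 TPM) and Ldha (85.2 TPM) were the highest. The 78 mitochondrial ribosomal protein genes, whose products translate the mitochondrially encoded subunits, had a median of 6.01 TPM, with 10 above, 17 below and 51 without a call. Mrps21 (61.0 TPM) and Mrpl52 (40.1 TPM) were the highest of them, and Mrpl47 (1.38 TPM) and Mrpl19 (1.49 TPM) the lowest.

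Acod1, which makes the complex II inhibitor itaconate, had 278, 179 and 162 TPM, above every member in replicates 1 and 2 and above all but Cox4i1 in replicate 3. No test of the difference between these lists was made.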
